A study of Rattus norvegicus with 18 samples.

Results

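The circadian clock genes described here are the 10 genes Arntl, Clock, Per1, Per2, Per3, Cry1, Cry2, Nr1d1, Nr1d2 and Dbp, chosen by symbol, and all 10 were among the 13188 genes of the expression table. RNA-seq had been carried out on 18 poly-A libraries of Rat1 fibroblasts, an established rat cell line, with 3 libraries in each of 6 groups. All groups were given as HO15.19 cells, a single line in which both copies of rat myc are disrupted (myc-/-), grown in 10% fetal bovine serum. The groups were untransfected myc-/- cells, untransfected myc-/- cells reconstituted with human MYC from the retroviral vector pBabe, and so not under the promoter of the myc gene (myc-/- + MYC), myc-/- cells given a control siRNA (myc-/- siCtrl), and myc-/- + MYC cells given either the control siRNA (siCtrl) or an siRNA that targets Ahr, the gene of the aryl hydrocarbon receptor, of which there were 2 (named siAHR-2 and siAHR-5). Each siRNA was used at 40 nM and cells were collected 48 h after transfection. The hour of harvest and any synchronization of the cells are not given in the sources used here. Each value is therefore a level at an unknown clock time, or a mean over cells at different phases. Whether the groups share a clock time is unknown, and no phase or rhythm can be read from the values.

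The mammalian clock is a transcriptional feedback loop that also runs in cultured fibroblasts, where fresh serum can set its phase. CLOCK and BMAL1, the product of Arntl, form a heterodimer of basic helix-loop-helix PAS proteins that binds E-boxes and switches on the Per and Cry genes, whose products then inhibit the heterodimer. The same heterodimer switches on Nr1d1 and Nr1d2, which encode the nuclear receptors REV-ERBα and REV-ERBβ, and these repress Arntl through ROR elements. Dbp is a direct output of the heterodimer and encodes a factor that acts through D-boxes, among others in Per promoters. MYC with its partner MAX also recognizes the E-box, and the aryl hydrocarbon receptor (AHR) belongs to the same basic helix-loop-helix PAS family as CLOCK and BMAL1. The comparisons ask how levels of the clock genes differ between cells with and without MYC, and between MYC-expressing cells with and without siRNA against AHR.

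These elements were looked for in the 250 bases before each annotated start, on both strands, in the RefSeq promoter windows of the rat assembly GRCr8, which is not the rn6 build of the expression values. Of the 10 genes, 9 had a window, with Arntl listed as Bmal1 and with 2 windows each for Clock and Nr1d1, and Cry1 was not matched. The E-box CACGTG was in 1 of these genes and in 5.59% of all 33469 rat windows, and the E-prime box CACGTT in 3 genes, Per2, Cry2 and Nr1d1, and 4.07% of windows. The D-box TTANGTAA was in 1 gene and 2.04% of windows, and the ROR element core TNGGTCA in 1 gene and 9.47% of windows. The core of the AHR-binding element, TNGCGTG, was in 0 of these genes and 4.09% of windows, which says no more than that those letters are missing from these stretches. None of these motifs contains another. The matches found are shown on the sense strand of the gene, with the motif in capitals (AACGTG is CACGTT read on the other strand). The Arntl match lies at chr1:176766301-176766327 on the plus strand, the Per2 matches at chr9:99497039-99497066 and chr9:99497167-99497196 on the minus strand, that of Cry2 at chr3:98860633-98860660 on the minus strand, and those of Nr1d1, from its 2 windows, at chr10:84231970-84231997 and chr10:84229629-84229656 on the minus strand.
Arntl, ROR element core: aaggcagaaagTAGGTCAgggacggag
Per2, E-prime box: acgcgcgcggtCACGTTttccactatgt
Per2, D-box: ccatgtgcgtcTTATGTAAagagagcgacg
Cry2, E-prime box: cacatggtgggAACGTGagggggcgggg
Nr1d1, E-prime box: gcatagagctcAACGTGcccgctgctgg
Nr1d1, E-box: gtcagctcccaCACGTGtctggggatcc
These are letters found in a window and do not show that a factor binds there. Clock, Per1, Per3, Nr1d2 and Dbp had a window but no match to any of these motifs. Elements outside the 250 bases were not searched, so a missing match does not show that a gene lacks the element.

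The libraries fell into 2 sets on different scales, a smaller one of 6 libraries, holding myc-/- + MYC and myc-/- siCtrl, and a larger one of 12, holding the other 4 groups, and the first principal component, with 74.7% of the variance, separated them. Levels were therefore compared within a set. By their labels, the MYC-expressing cells were the untransfected ones in the smaller set and the transfected ones in the larger set, so in each set MYC and transfection cannot be told apart. Whether the transfection labels of the 2 groups without MYC were exchanged could not be settled, and transfection is given as labelled throughout. In bulk RNA, fewer cells of a type and less RNA per cell cannot be told apart either. The labels do not say that the 3 libraries of a group came from separate cultures, so p-values measure the spread between these libraries, which may be technical. The table holds normalized values on a log2 scale, depth is unknown, and a difference of 1 is a 2-fold difference. Rat Myc was between 9.16 and 9.47 in myc-/- siCtrl and between 8.01 and 8.08 in myc-/- + MYC, and between 10.82 and 10.94 in myc-/- and between 8.16 and 8.27 in siCtrl of the larger set. Rat Myc thus had values well above 0 in cells whose rat myc is labelled as disrupted, higher without MYC than with it, and since human MYC is not in the table this does not check the MYC labels. Ahr was 13.22 to 13.34 in siCtrl, 11.97 to 12.03 with siAHR-2 and 11.76 to 11.95 with siAHR-5, lower in both siRNA groups as their labels say. Ahr was also higher with MYC, by a log2 difference of 0.52 in the smaller set and 1.40 in the larger set (limma adjusted p = 8.33e-07 and 4.42e-05). The study's authors had earlier reported that MYC induces AHR. The myc-/- library of replicate 2 stood apart, with 869 genes over 0.3 from the mean of the other two libraries of its group, against 15 to 220 genes in the other libraries.

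Markers of cell identity moved along with the MYC groups. Of 11 fibroblast markers, Col1a2, a chain of type I collagen, was near the bottom of the scale in all libraries, between 3.64 and 4.13. With MYC, 1 fibroblast marker was higher and 5 were lower past the cutoffs given below in the smaller set, and 7 were lower in the larger set, and the log2 sum of the list was 19.90 to 19.99 against 20.82 to 20.84 and 20.23 to 20.25 against 21.95 to 22.18. The sum adds values off the log scale, so the most abundant markers carry it, which in cells without MYC were Col1a1, Fn1 and Vim. Of 3 epithelial markers, Krt8 alone passed the cutoffs, higher with MYC in both sets. Epcam, another of the 3, was 1.22 to 1.27 in the smaller set and 2.35 to 2.42 in the larger, near the bottom of the scale. Of 3 blood markers, Cd3e alone passed, lower with MYC in both sets. The log2 difference with MYC was 0.35 and 0.27 for Cd68 and -0.15 and -0.04 for Ptprc in the smaller and larger set, not past the cutoffs. The endothelial marker Kdr was 0.94 to 0.98 and 5.26 to 5.51, and 0 of 3 endothelial markers passed the cutoffs in either set (limma). Within siCtrl, Kdr (5.26 to 5.27) and Ptprc (2.84) were nearly constant. Such values may be the lowest that the unknown transformation gives for a gene, so Kdr and Ptprc say little about cell type. Eif2s3y, a Y-linked gene used to ask whether the cells compared were the same line, was between 5.94 and 5.99 in myc-/- siCtrl and between 10.45 and 10.48 in myc-/- + MYC, and between 8.89 and 8.97 in myc-/- and between 13.12 and 13.26 in siCtrl. Its level thus differed between the groups with and without MYC in each set, and that all groups were a single line rests on their description alone. The part of these shifts in the values of the clock genes was not tested.

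**Figure D1:**
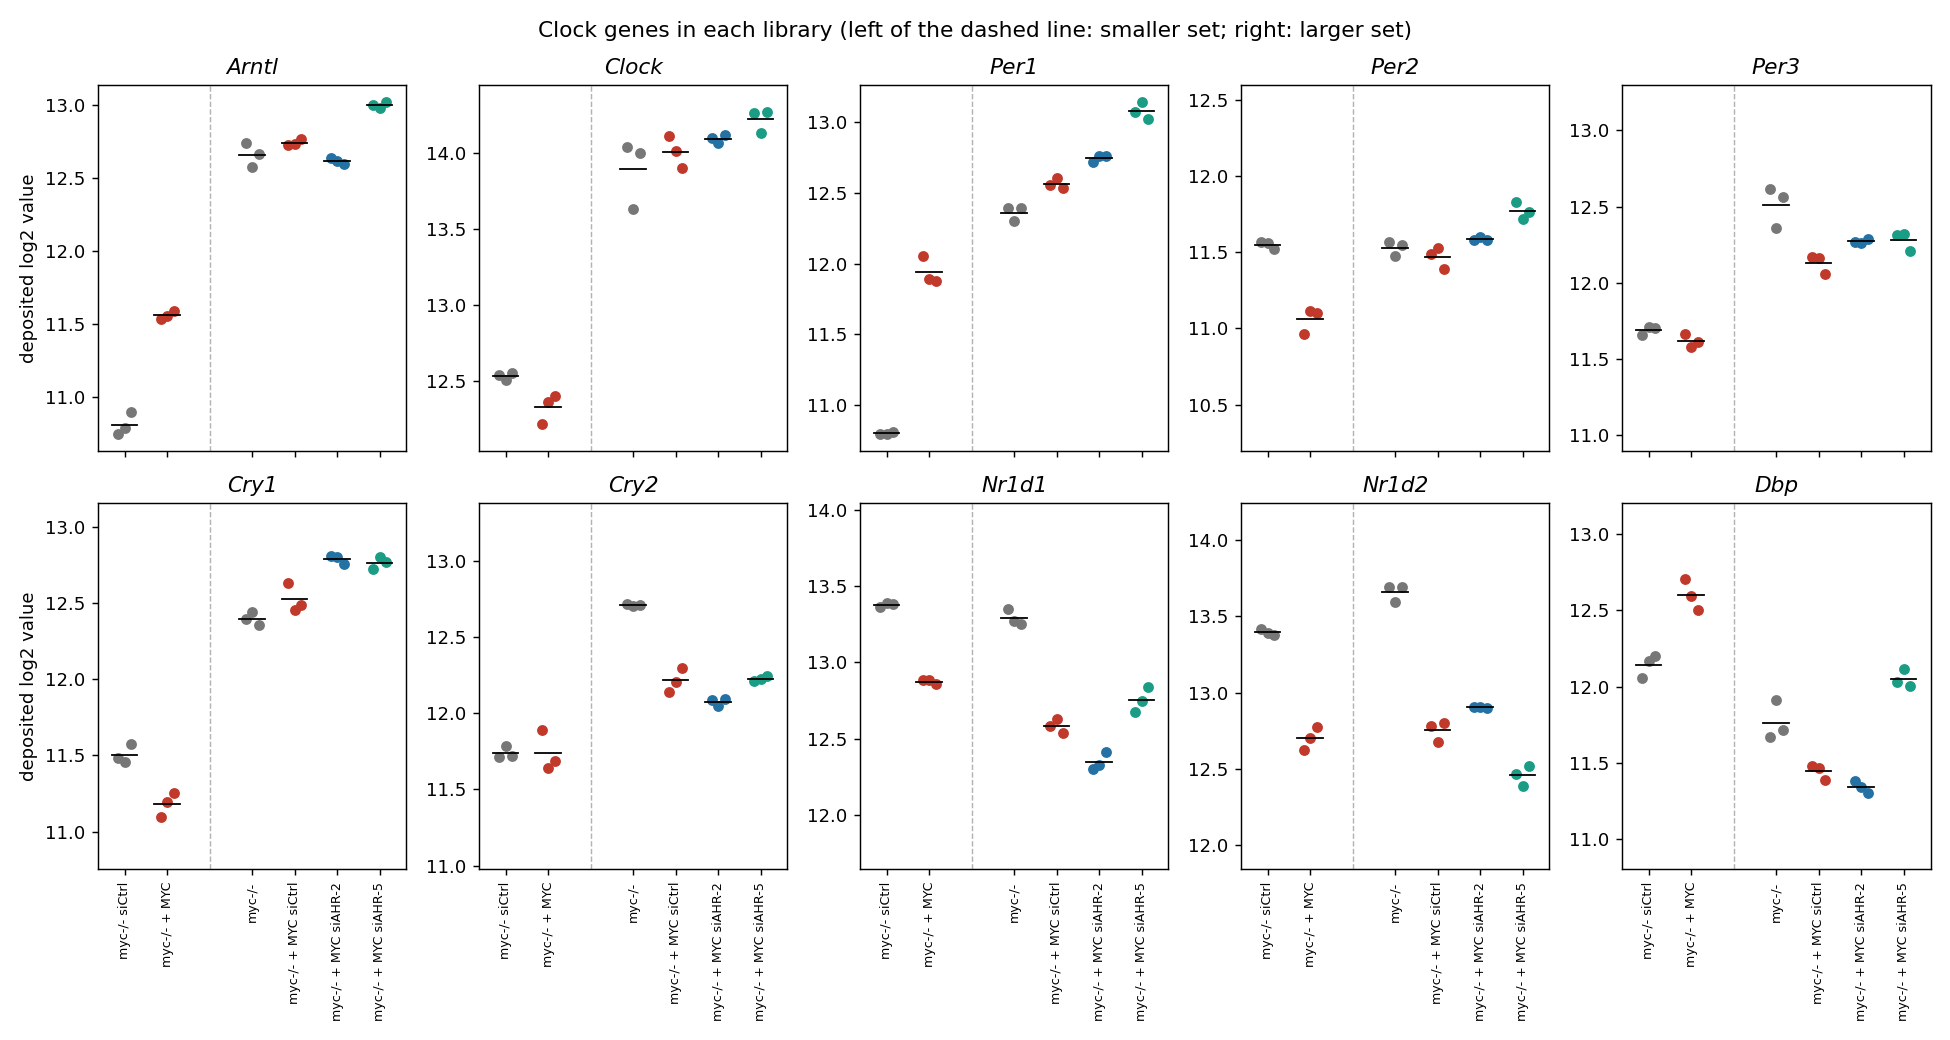
Level of each of the 10 clock genes in every library. The y axis is the deposited log2 value, each point is a library, the black line is the mean of the 3 libraries of a group, and the dashed line separates the smaller set from the larger set, which are on different scales. The MYC groups lie lower for Nr1d1 and Nr1d2 in both sets, Per1 and Arntl lie higher with MYC in the smaller set, and Dbp is higher with siAHR-5 than with siAHR-2 or siCtrl.

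In the smaller set, Per1 and Arntl rose and Nr1d2 fell with MYC, and in the larger set Nr1d1 and Nr1d2 fell. A gene passed when its log2 fold change (log2FC) corresponded to a fold of at least 1.5 in either direction and its adjusted p was at most 0.01 by limma over all 13188 genes, and "rose" and "fell" are kept for such genes. In the smaller set, 3 of the 10 clock genes passed, and 26.8% of all genes did. In the larger set, 2 of 10 passed, and 25.5% of all genes did. Both counts are near the background, so how many clock genes passed is not particular to the clock. With an adjusted p below 0.05 and no fold cutoff, 8 of 10 clock genes passed in the smaller set, as did 76.2% of all genes. They were 3 higher and 5 lower ones, against 37.3% and 39.0% of all genes. In the larger set 6 of 10 passed on this rule, as did 64.7% of all genes, with 1 higher and 5 lower against 31.6% and 33.1%. The libraries with and without MYC did not overlap for 8 of 10 clock genes and 78.8% of all genes in the smaller set, and for 7 of 10 and 70.5% in the larger. The median log2FC of the 10 genes was -0.14 in the smaller set and -0.19 in the larger set, and over all genes it was near 0 in both. The median size of the log2FC was 0.475 in the smaller set against 0.291 over all genes, and 0.260 in the larger set against 0.276 over all genes.

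Of the activators, Arntl rose with MYC in the smaller set and was nearly level in the larger set. In the smaller set, Arntl was 10.75, 10.79 and 10.90 in myc-/- siCtrl and 11.54, 11.56 and 11.59 in myc-/- + MYC. All 3 MYC-expressing libraries were above all 3 without MYC, and the log2FC was 0.75 ± 0.0479 (SE, n = 3 per group), a fold of 1.68, with a limma adjusted p of 5.83e-08. Arntl in the larger set was 12.74, 12.58 and 12.67 in myc-/- and 12.73, 12.74 and 12.77 in siCtrl. The groups overlapped here, and the log2FC was 0.08 (95% confidence interval -0.03 to 0.20, limma adjusted p = 0.181). Clock, the partner of Arntl, was 12.54, 12.51 and 12.55 in myc-/- siCtrl and 12.22, 12.37 and 12.41 in myc-/- + MYC, a log2FC of -0.20 ± 0.0471 (limma adjusted p = 0.00216) that was below the fold cutoff although the groups did not overlap. Its levels in the larger set were 14.04, 13.63 and 14.00 in myc-/- and 14.11, 14.01 and 13.90 in siCtrl. The low value belongs to the replicate 2 library that stood apart, the log2FC was 0.12 ± 0.120 (limma adjusted p = 0.430), and without that library it was -0.01.

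Of the repressors, Per1 had the largest log2FC with MYC among the 10 genes, in the smaller set. It was 10.80, 10.80 and 10.81 in myc-/- siCtrl and 12.06, 11.89 and 11.88 in myc-/- + MYC. The groups lay more than 1 log2 unit apart, and the log2FC was 1.14 ± 0.0503, a fold of 2.2 (limma adjusted p = 2.56e-09). Per1 in the larger set was 12.39, 12.30 and 12.39 in myc-/- and 12.55, 12.60 and 12.53 in siCtrl. All MYC-expressing libraries were again higher, but by a log2FC of 0.20 ± 0.0386 (limma adjusted p = 0.00436), which is below the fold cutoff. Per2 and Per3, the other two period genes, were below the fold cutoff in both sets. Per2 was between 11.52 and 11.56 in myc-/- siCtrl and between 10.97 and 11.11 in myc-/- + MYC, a log2FC of -0.49 ± 0.0473 (limma adjusted p = 2.22e-06), so within the smaller set Per1 and Per2 differed from the control in opposite directions. Per2 in the larger set was between 11.48 and 11.56 in myc-/- and between 11.39 and 11.53 in siCtrl, and the groups overlapped (log2FC -0.06, limma adjusted p = 0.335). Per3 showed a log2FC of -0.07 with overlapping groups in the smaller set (95% confidence interval -0.16 to 0.02) and of -0.38 ± 0.0761 in the larger set (limma adjusted p = 0.00540), where it was between 12.36 and 12.62 in myc-/- and between 12.06 and 12.17 in siCtrl.

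The cryptochromes Cry1 and Cry2, which join the PER proteins in the inhibitory complex, did not pass the fold cutoff in either set. Cry1 was between 11.45 and 11.57 in myc-/- siCtrl and between 11.10 and 11.26 in myc-/- + MYC, a log2FC of -0.32 ± 0.0507 (limma adjusted p = 1.38e-04). Its log2FC in the larger set was 0.13 ± 0.0550 (limma adjusted p = 0.0897), with 12.35 to 12.44 in myc-/- and 12.46 to 12.63 in siCtrl. Cry2 was between 11.71 and 11.79 in myc-/- siCtrl and between 11.64 and 11.89 in myc-/- + MYC, so the MYC group spanned the control group, and the 95% confidence interval of its log2FC ran from -0.13 to 0.13. In the larger set Cry2 was 12.71, 12.70 and 12.71 in myc-/-, the tighter group, and 12.14, 12.21 and 12.30 in siCtrl, a log2FC of -0.49 ± 0.0446 (limma adjusted p = 1.61e-04). Both values were below the fold cutoff.

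Both nuclear receptors were lower with MYC in both sets. Nr1d2 was 13.42, 13.39 and 13.38 in myc-/- siCtrl and 12.63, 12.70 and 12.77 in myc-/- + MYC. It was 13.69, 13.59 and 13.70 in myc-/- and 12.78, 12.68 and 12.80 in siCtrl. In both sets every MYC-expressing library was below every library without MYC, and Nr1d2 fell, with a log2FC of -0.69 ± 0.0388 in the smaller set (limma adjusted p = 1.88e-08) and of -0.91 ± 0.0480 in the larger set (limma adjusted p = 1.7e-05). Nr1d1 was 13.36, 13.39 and 13.38 in myc-/- siCtrl and 12.88, 12.88 and 12.86 in myc-/- + MYC. It was 13.35, 13.27 and 13.25 in myc-/- and 12.58, 12.63 and 12.54 in siCtrl. Its groups were likewise apart in both sets, with a log2FC of -0.71 ± 0.0402 in the larger set (limma adjusted p = 2.2e-05), which passed, and of -0.50 ± 0.0286 in the smaller set (limma adjusted p = 2.11e-08), which was below the fold cutoff. The E-box and the E-prime box of Nr1d1 are among the sequences shown above, while no motif was found for Nr1d2, nor for Per1 or Dbp. Whether a motif goes with a change was not tested.

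Dbp, the output factor, differed in opposite directions in the 2 sets. In the smaller set, Dbp was 12.06, 12.17 and 12.20 in myc-/- siCtrl and 12.71, 12.60 and 12.51 in myc-/- + MYC. In the larger set it was 11.67, 11.91 and 11.71 in myc-/- and 11.48, 11.47 and 11.39 in siCtrl. The MYC-expressing libraries were all higher in the smaller set, with a log2FC of 0.46 ± 0.0541 (limma adjusted p = 1.14e-05), and all lower in the larger set, with a log2FC of -0.32 ± 0.0725 (limma adjusted p = 0.00948). Both were below the fold cutoff.

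**Figure D2:**
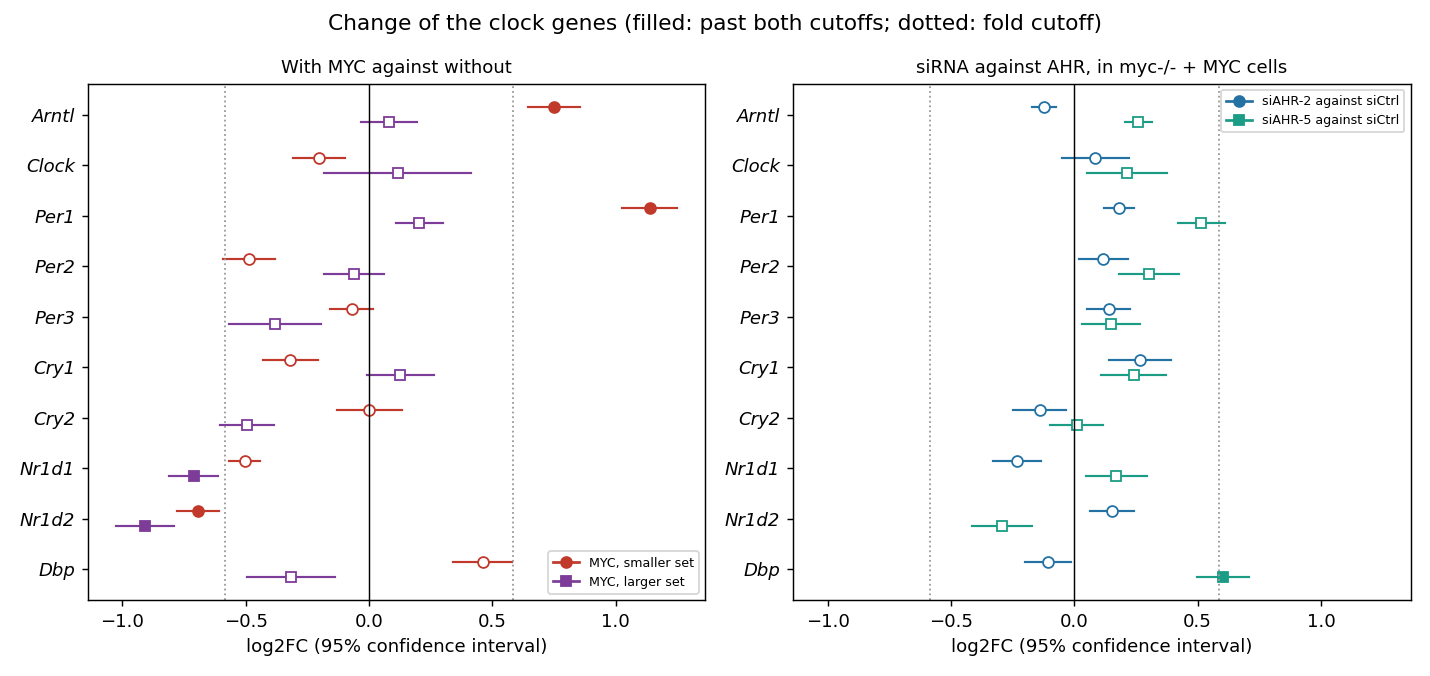
Log2 fold change of each clock gene with its 95% confidence interval. The left panel shows cells with MYC against cells without it in the smaller set (circles) and the larger set (squares), and the right panel shows siAHR-2 (circles) and siAHR-5 (squares) against siCtrl. Filled symbols passed both cutoffs and the dotted lines mark a fold of 1.5 in either direction. Nr1d1 and Nr1d2 are to the left of 0 in both sets, and Dbp with siAHR-5 is the filled symbol of the right panel.

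The difference between the MYC effects, taken as the log2FC in the larger set minus that in the smaller set, was tested in 1 limma fit of 12 libraries in 4 groups. It passed for 3 of the 10 clock genes, all lower, and for 16.5% of all genes, while 9.67% of all genes passed and were lower. The difference was -0.94 ± 0.0709 for Per1 (limma adjusted p = 3.81e-08), -0.78 ± 0.0947 for Dbp (limma adjusted p = 6.22e-06) and -0.67 ± 0.0714 for Arntl (limma adjusted p = 1.56e-06). The difference was -0.21 for both Nr1d1 and Nr1d2, with limma adjusted p of 0.00436 and 0.0131. With each library centred on its median it was -0.12 for Nr1d1 and -0.13 for Nr1d2 (limma adjusted p = 0.0605 and 0.112). Cry2 had a difference of -0.49 and Per3 of -0.31, and the difference was 0.43 for Per2, 0.45 for Cry1 and 0.32 for Clock, with limma adjusted p between 1.44e-04 and 0.0400. With an adjusted p below 0.05 and no fold cutoff, the difference passed for 10 of 10 clock genes, and for 54.9% of all genes, with 3 higher and 7 lower against 24.8% and 30.1%. Clock had the highest adjusted p of them, and it ranged from 0.00845 to 0.109 over the alternatives (limma). Its adjusted p was 0.0688 without the mean-variance trend and at or above 0.05 in 7 of 12 fits that left out a library (siCtrl replicate 1 or 2, myc-/- + MYC replicate 1 or 2, or any of myc-/- siCtrl), and its difference was 0.19 without myc-/- replicate 2. The sets differ in scale and, by their labels, in which arm was transfected, and the part of either in these differences was not tested.

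In MYC-expressing cells, 0 of the 10 clock genes passed both cutoffs with siAHR-2, with 0.470% of all genes, and 1 passed with siAHR-5, Dbp, with 2.32% of all genes. The siAHR-2 and siAHR-5 comparisons share the 3 siCtrl libraries as control. For siAHR-2, 9 of 10 had an unadjusted limma p below 0.05, as had 5326 of the 13188 genes, and at an adjusted p below 0.05 with no fold cutoff 6 of 10 passed, as did 29.3% of all genes, with 4 higher and 2 lower against 13.7% and 15.5%. For siAHR-5 that count was 8 of 10, with 39.2% of all genes, and 7 were higher and 1 was lower, against 21.1% and 18.1% of all genes. The libraries did not overlap with siCtrl for 9 of 10 clock genes with siAHR-2, where 43.3% of all genes did not overlap, and for 9 of 10 with siAHR-5, where 50.5% did not. The differences were small, with a median size of the log2FC of 0.140 with siAHR-2 and 0.250 with siAHR-5, against 0.0739 and 0.104 over all genes. Of the 11 fibroblast markers 0 passed both cutoffs with siAHR-2 and 1, Thy1, was higher past them with siAHR-5. The log2 sum of the list was 20.23 to 20.25 in siCtrl, 19.99 to 20.03 with siAHR-2 and 19.96 to 19.97 with siAHR-5. This sum rests mostly on Vim and Fn1. The log2FC of Vim was -0.36 with siAHR-2 and -0.48 with siAHR-5, and that of Fn1 -0.07 and -0.10. With siAHR-5 the log2FC was 0.75 for Thy1 and 0.55 for Pdgfrb, so the markers did not move together. Eif2s3y was 13.12 to 13.26 in siCtrl, 12.94 to 13.02 with siAHR-2 and 12.47 to 12.65 with siAHR-5, where it was lower past both cutoffs, and the part of these markers in the values of the clock genes was not tested.

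Dbp was 11.48, 11.47 and 11.39 in siCtrl, 11.38, 11.34 and 11.30 with siAHR-2 and 12.03, 12.11 and 12.01 with siAHR-5. The 3 siAHR-5 libraries were above the 9 other libraries of the larger set, those of myc-/- cells included, and Dbp rose with a log2FC of 0.60 ± 0.0422, a fold of 1.52 (limma adjusted p = 5.30e-04). That is just past the fold cutoff, and the log2FC was 0.57 after quantile normalization, 0.54 with each library centred on its median, 0.57 without siAHR-5 replicate 2 and 0.58 without siCtrl replicate 3, all below it. With siAHR-2 the log2FC of Dbp was -0.11 ± 0.0370 (limma adjusted p = 0.0874).

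Per1 was 12.55, 12.60 and 12.53 in siCtrl, 12.72, 12.76 and 12.76 with siAHR-2 and 13.07, 13.14 and 13.02 with siAHR-5. The 3 groups did not overlap and both siRNA groups were above siCtrl, with a log2FC of 0.18 ± 0.0246 with siAHR-2 (limma adjusted p = 0.00511) and of 0.51 ± 0.0385 with siAHR-5 (limma adjusted p = 5.87e-04), neither of which reached the fold cutoff. Cry1 was likewise higher with both, at 12.46 to 12.63 in siCtrl, 12.76 to 12.81 with siAHR-2 and 12.72 to 12.80 with siAHR-5 (log2FC 0.27 and 0.24, limma adjusted p = 0.0141 and 0.0168). The log2FC of Per2 was 0.12 with siAHR-2 and 0.30 with siAHR-5 (limma adjusted p = 0.0814 and 0.00587), with 11.58 to 11.60 and 11.72 to 11.83 against 11.39 to 11.53 in siCtrl. Per3 was 12.06 to 12.17 in siCtrl, 12.26 to 12.29 with siAHR-2 and 12.21 to 12.32 with siAHR-5, and neither siRNA group overlapped with siCtrl although the limma adjusted p was 0.0337 and 0.0545.

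The nuclear receptors and Arntl differed between the 2 siRNAs. Nr1d2 was 12.78, 12.68 and 12.80 in siCtrl, 12.91, 12.91 and 12.90 with siAHR-2 and 12.47, 12.39 and 12.52 with siAHR-5. Nr1d1 was 12.58, 12.63 and 12.54 in siCtrl, 12.30, 12.33 and 12.41 with siAHR-2 and 12.67, 12.74 and 12.84 with siAHR-5. Nr1d2 was thus highest with siAHR-2 and lowest with siAHR-5, and Nr1d1 the reverse, with no overlap among the 3 groups for either gene. The log2FC of Nr1d2 was 0.15 with siAHR-2 and -0.29 with siAHR-5 (limma adjusted p = 0.0282 and 0.00646), and that of Nr1d1 was -0.23 and 0.17 (limma adjusted p = 0.00959 and 0.0423). Over the alternatives, the value of Nr1d1 with siAHR-5 ranged from 0.11 to 0.21. Arntl was 12.73, 12.74 and 12.77 in siCtrl, 12.64, 12.62 and 12.60 with siAHR-2 and 13.00, 12.98 and 13.03 with siAHR-5, so it was lower with the first siRNA and higher with the second (log2FC -0.12 and 0.26, limma adjusted p = 0.00735 and 7.43e-04). Clock was between 14.07 and 14.11 with siAHR-2, overlapping with siCtrl at 13.90 to 14.11, and between 14.13 and 14.27 with siAHR-5 (log2FC 0.21, limma adjusted p = 0.0482). Cry2 was between 12.05 and 12.09 with siAHR-2, below the siCtrl range of 12.14 to 12.30 (log2FC -0.14, limma adjusted p = 0.0632), and between 12.21 and 12.24 with siAHR-5, inside it.

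A direct test of siAHR-5 against siAHR-2, which does not use the siCtrl libraries, passed both cutoffs for 1 of 10 clock genes and 2.18% of all genes. That gene was Dbp, with a log2FC of 0.71 ± 0.0392 (limma adjusted p = 1.88e-04). At an adjusted p below 0.05 with no fold cutoff 7 of 10 passed, as did 39.1% of all genes, with 6 higher and 1 lower against 22.1% and 17.0%. The 2 siRNA groups did not overlap for 8 of 10 clock genes and 49.5% of all genes. Besides Dbp, those that passed on the adjusted p alone were Nr1d1 (log2FC 0.40), Arntl (0.38), Per1 (0.33), Per2 (0.18) and Cry2 (0.15), all higher with siAHR-5, and Nr1d2 (-0.45), lower with it, with limma adjusted p between 1.64e-04 and 0.00835. For Per3 and Cry1 the log2FC was 0.01 and -0.03, with limma adjusted p of 0.922 and 0.540. Clock missed it as well, with a log2FC of 0.13 (limma adjusted p = 0.0573), although its groups did not overlap. The 2 siRNAs were used at the same dose and time, and Ahr was 11.97 to 12.03 with siAHR-2 and 11.76 to 11.95 with siAHR-5. Of the 11 fibroblast markers, 2 (Thy1 and Pdgfrb) were higher with siAHR-5 than with siAHR-2 past both cutoffs and 0 were lower. The summed list, which rests mostly on Vim and Fn1, was slightly lower with siAHR-5, at 19.96 to 19.97 against 19.99 to 20.03. Eif2s3y was lower with siAHR-5 than with siAHR-2 with a log2FC of -0.42 that missed the fold cutoff (limma adjusted p = 0.00183). The part of these markers in these differences was not tested.

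The other genes of the clock pathway were 23 listed regulators, of which 18 were in the table. The rest were not analysed here. Of the 18, 5 passed both cutoffs with MYC in the smaller set, 2 higher and 3 lower, and 6 in the larger set, 3 higher and 3 lower, against the backgrounds of 26.8% and 25.5% above. With siAHR-2 and with siAHR-5, 0 of 18 passed, where 0.470% and 2.32% of all genes did, while 10 and 11 of 18 had a limma adjusted p below 0.05, as had 29.3% and 39.2% of all genes.

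Nfil3, which encodes a repressor that competes with DBP at D-boxes, fell with MYC in both sets. It was 12.69, 12.65 and 12.67 in myc-/- siCtrl and 11.20, 11.06 and 11.18 in myc-/- + MYC, and 13.57, 13.78 and 13.61 in myc-/- and 12.31, 12.19 and 12.15 in siCtrl. The groups lay more than 1 log2 unit apart in both sets, with a log2FC of -1.52 and -1.44 (limma adjusted p = 6.89e-11 and 1.2e-05). Usp2, a deubiquitinase and clock output, fell as well, with a log2FC of -1.22 in the smaller set and -1.12 in the larger set (limma adjusted p = 2.18e-09 and 1.9e-05). It had a log2FC of 0.45 with siAHR-2 and 0.30 with siAHR-5 (limma adjusted p = 0.00191 and 0.00502), both below the fold cutoff. Wee1, a cell cycle kinase that the clock is known to control, fell in the smaller set, by a log2FC of -0.88 (limma adjusted p = 2.85e-10), while its value of -0.49 in the larger set was below the fold cutoff.

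Tipin and Timeless, partners that act at the replication fork, the second of which binds PER and CRY proteins, were higher with MYC. Tipin rose in both sets, with a log2FC of 0.66 and 0.71 (limma adjusted p = 3.27e-07 and 9.3e-05). Timeless rose in the larger set, by a log2FC of 0.93 (limma adjusted p = 4e-06), while 0.53 in the smaller set was below the fold cutoff, though 0.69 after quantile normalization was past it. Rorb, a ROR receptor of the kind that opposes REV-ERBs at ROR elements, rose in the smaller set and fell in the larger set. It was 8.56, 8.44 and 8.53 in myc-/- siCtrl and 9.39, 9.46 and 9.37 in myc-/- + MYC, but 10.81, 10.60 and 10.73 in myc-/- and 9.69, 9.61 and 9.44 in siCtrl. Its log2FC was 0.89 and -1.13 (limma adjusted p = 8.98e-08 and 8.4e-05), and the difference between the sets was -2.03 (limma adjusted p = 5.63e-10). Npas2, a paralogue of Clock that can replace it as partner of BMAL1, was level in the smaller set and rose in the larger set, from 9.88, 9.91 and 9.64 in myc-/- to 10.82, 10.75 and 10.71 in siCtrl, with a log2FC of 0.95 (limma adjusted p = 1.58e-04). It was 10.93 to 11.07 with siAHR-2 and 11.14 to 11.22 with siAHR-5, above siCtrl in both, with a log2FC of 0.23 and 0.42 that was below the fold cutoff.

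**Figure D3:**
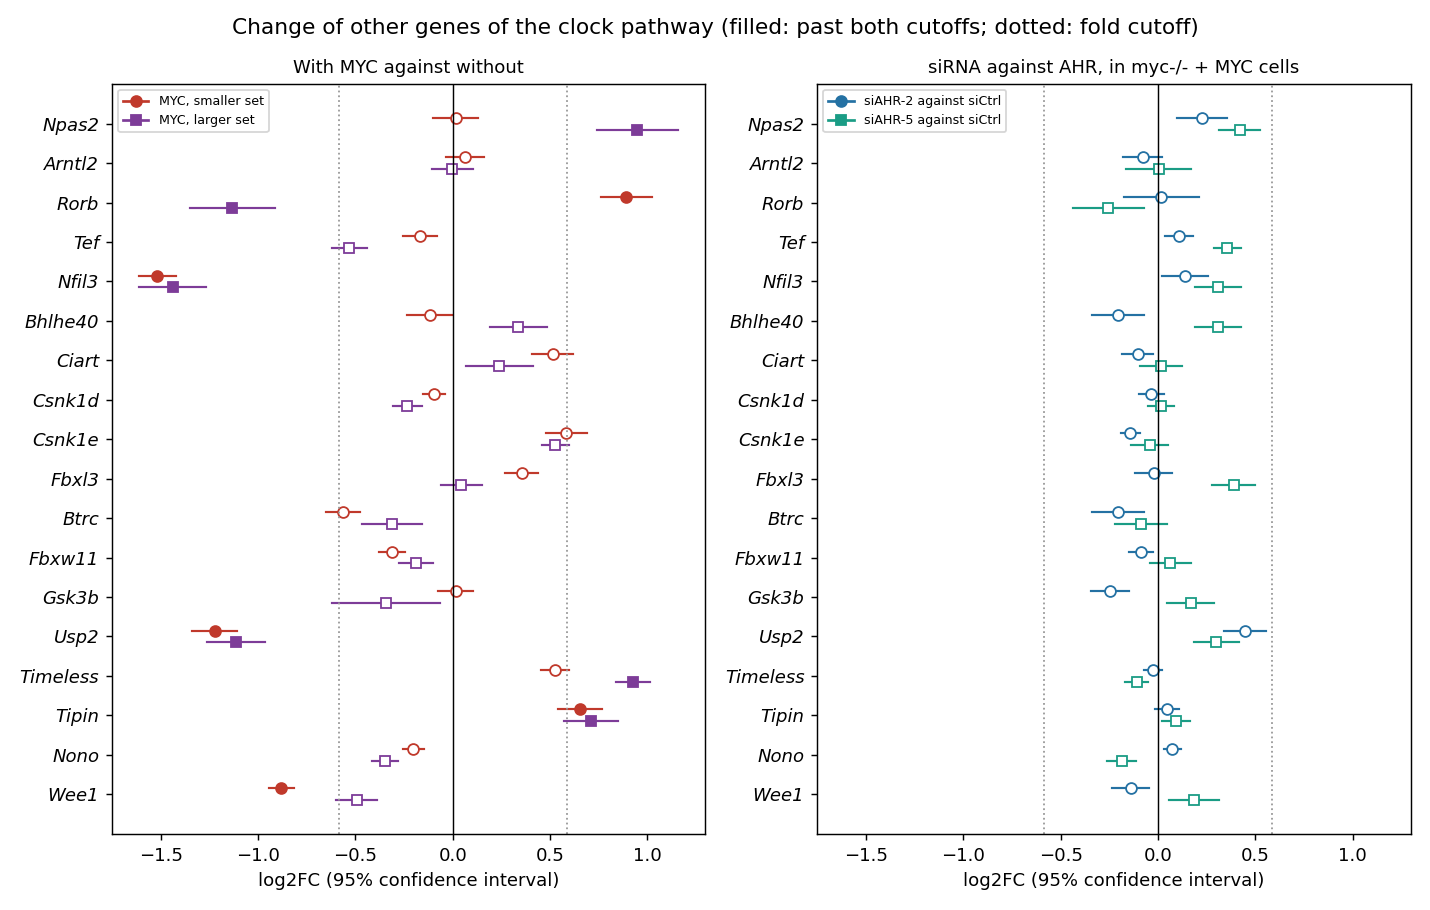
Log2 fold change of the 18 other clock pathway genes with its 95% confidence interval, with cells with MYC against cells without it on the left (smaller set as circles, larger set as squares) and siAHR-2 (circles) and siAHR-5 (squares) against siCtrl on the right. Filled symbols passed both cutoffs, and the dotted lines mark a fold of 1.5 in either direction. Nfil3 and Usp2 are filled on the left of 0 in both sets, Tipin on the right of 0 in both, and Rorb on opposite sides, while the right panel has 0 filled symbols.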

How the data were processed

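Per the labels and the study's methods, poly-A RNA was sequenced, and the authors aligned reads to rn6 with HISAT2 2.1.0, dropped genes below 10 reads in total and applied DESeq2 normalization. The counter and annotation are not given in the sources used here. The authors deposited log2 values, 1 column per library, for 13188 genes. The table is named log CPM, but off the log scale its libraries total 86.3 to 160.8 times what CPM would, so the exact transformation, and its effect on fold changes of low genes, are unknown. Depth and the precision it gives are unknown too. There were 0 value columns without a sample.

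Groups came from the sample labels. limma 3.58.1 in R 4.3.3 (lmFit, eBayes with a mean-variance trend) was run on the deposited values of the groups compared, with Benjamini-Hochberg adjustment over all genes, and was tested on simulated data. A gene passed with a fold of at least 1.5 in either direction and an adjusted p of at most 0.01. Named genes are the 10 clock genes, those of 23 other listed pathway genes that passed against a control group, Myc and Ahr, and markers of cell identity from fixed lists, of which the text names some after their values were seen. The members, lists and cutoffs were chosen with earlier results of these data known. Alternatives were an adjusted p below 0.05 with no fold cutoff, all libraries of a set in 1 fit, no trend, quantile normalization, median centring, a filter on a mean log2 value of 5, adding 1 before taking logs, blocking on replicate number, and omitting libraries in turn. Promoter windows came from RefSeq (GRCr8) and serve as sequence only. Python 3.11.15 with matplotlib 3.10.9 was used for figures.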

Additional observations from a re-analysis of the deposited data

Results flagged for a closer look

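For 3 clock genes the difference between cells with and without MYC was not the same in the 2 sets of libraries, by the limma test of the difference itself (larger set minus smaller set, 3 libraries in each of 4 groups) and past both cutoffs, as it was for 16.5% of all genes. The difference was -0.94 for Per1, higher with MYC by a log2FC of 1.14 in the smaller set and 0.20 in the larger set. It was -0.67 for Arntl, with a log2FC of 0.75 and 0.08. For Dbp the difference was -0.78, with a log2FC of 0.46 and -0.32, and all 3 MYC-expressing libraries were above the control libraries in the first set and below them in the second. By the labels, which may have been exchanged between the 2 groups without MYC, the MYC-expressing arm was untransfected and the other transfected in the smaller set, and the reverse in the larger set, and the part of transfection in these differences was not tested.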

How the results depend on the processing

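Under an adjusted p below 0.05 with no fold cutoff, the clock genes that passed numbered 8 (MYC, smaller set), 6 (MYC, larger set), 6 (siAHR-2), 8 (siAHR-5), 7 (siAHR-5 against siAHR-2) and 10 (difference of the MYC effects), and all genes that passed numbered 10051, 8538, 3860, 5169, 5151 and 7235. The siAHR-5 count of clock genes was 0 after quantile normalization and 0 with median centring, where limma gave 9 and 7 of 10 an unadjusted p below 0.05, as it gave 6218 and 7508 of all genes, and 0 to 1 when each library was left out in turn. Leaving out each library, the clock counts stayed at 3 (MYC, smaller set), 2 (larger set), 0 (siAHR-2), 1 (siAHR-5 against siAHR-2) and 3 (difference), and the counts over all genes were 3518 to 3567, 3263 to 3413, 52 to 64 (siAHR-2), 274 to 297 (siAHR-5), 258 to 280 (direct) and 2139 to 2231 (difference).

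Same-numbered libraries did not deviate together in all pairs of any comparison (correlations from -0.256 to 0.242), so the numbers were not taken to pair the samples. With the replicate number as a block, the clock counts were 3, 2, 0, 1, 1 and 3 in the order above, and over all genes 3538, 3304, 0, 270, 266 and 2172 passed, the 0 for siAHR-2 with 5030 genes at an unadjusted limma p below 0.05.

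Some values near 0 changed sign. Cry2 in the smaller set was -0.042 with median centring and -0.074 to 0.050 with a library left out. Clock in the larger set was -0.013 to 0.19 with a library left out. Arntl, Per2 and Cry1 in that set kept their sign with a library left out but ranged from 0.038 to 0.12, -0.090 to -0.022 and 0.074 to 0.16. Cry2 with siAHR-5 was -0.0015 after quantile normalization, -0.049 with median centring and -0.026 to 0.051 with a library left out, and Per3 between the siRNAs was -0.021 with median centring and -0.011 to 0.043 with a library left out. Npas2 in the smaller set was -0.034 after quantile normalization, -0.027 with median centring and -0.020 to 0.053 with a library left out. Rorb with siAHR-2 was -0.045, -0.014 and -0.054 to 0.072 under these, and Timeless with siAHR-2 was 0.025 after quantile normalization. Over all genes with siAHR-5, 194 were higher and 112 lower, but 131 and 128 after quantile normalization and 140 and 165 with median centring. With MYC, the 1653 higher and 1884 lower genes of the smaller set became 1799 and 1684 after quantile normalization and 1492 and 2046 with median centring, and the 1425 and 1936 of the larger set 1754 and 1630, and 1603 and 1791. For the difference of the MYC effects, 896 higher and 1275 lower became 1001 and 1152 after quantile normalization and 1148 and 1036 with median centring. The cause of these shifts was not tested. For the MYC comparison in the smaller set, a fit of all libraries of the set equals the one reported and was not run. With depth unknown, no limit from counting error can be given.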
